A study of Mus musculus with 2 samples.

Results

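The collagen gene family was described in 2 RNA libraries whose labels name mammary basal cells. Members were all genes whose GENCODE M21 symbol is Col, a number, the letter a and a number, which gave 44 genes out of 54438 with at least 1 listed transcript. Both libraries, here named W1 and W2 by title, came from flow-sorted cells of wild type C57BL/6 mice 8 weeks old, amplified with a Smart-seq reagent. The series set Pd-l1+ against Pd-l1- cells, but all other labels of the libraries are the same, so neither library could be placed in a Pd-l1 class. Numbers of mice and of cells, and the sorting gates, were not given in the labels used here. Each library is a single one without a replicate, so the values below carry no p-value, and a difference describes these libraries and not a Pd-l1 class. Fewer cells of a type and less RNA per cell cannot be told apart in such bulk libraries.

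W1 went against its label. The list of 8 basal markers summed to 6.62 TPM (the length-scaled abundance deposited by the authors) in W1 and 33369 TPM in W2, with 4 of the 8 read in W1 and 7 in W2 and Krt5, Cnn1, Myh11 and Trp63 at 0 in W1. The 9 endothelial markers, all read in W1 and 1 of them in W2, summed to 4670.2 TPM in W1 and 4.78 TPM in W2. The 8 luminal markers summed to 7.35 and 4212 TPM, and the 7 fibroblast markers to 0 and 165 TPM, in W1 and W2. Krt8, Epcam and Krt18 gave nearly all of the luminal sum in W2. Elf5 and Prlr were at 0 in both, and Esr1 was at 1.25 TPM in W1 and 0.362 TPM in W2. Of the fibroblast markers, Dpt, Dcn, Fbln1 and Lum were read in W2, while Pdgfra, Pi16 and Mfap5 were at 0 in both. The 6 pericyte markers summed to 59.3 TPM in W1 and 51.3 TPM in W2, nearly all from Rgs5, with Pdgfrb, Cspg4, Kcnj8 and Abcc9 at 0 in both. The 5 lymphatic markers summed to 13139 and 8074 TPM, where Lyve1, Prox1 and Flt4 were at 0 in W2. Ccl21a made up most of both sums (10177 TPM in W1 and 7542.5 TPM in W2). Pdpn, at 438 TPM in W1 and 531 TPM in W2, was the only other member read in W2. The 7 leukocyte markers summed to 80.1 TPM in W1 and 0.267 TPM in W2. In W1 nearly all came from Lyz2 (46.6 TPM) and Cd79a (32.8 TPM). Ptprc had 6 reads in W1, Cd68 had 1 read in each library, and Cd3e, Adgre1 and Itgam were at 0 in both. The deposited values correspond to 3055840 counted reads in W1 and 3800030 in W2.

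Collagens are secreted or membrane proteins whose chains wind together into a triple helix, and glycine recurs at a fixed spacing along the helix. Fibrillar collagens such as types I, III and V form the banded fibres of connective tissue, and type IV collagen forms the sheet-like network of basement membranes. Type VI forms beaded filaments near basement membranes, FACIT collagens sit on the surface of fibrils, and multiplexins and transmembrane collagens lie in basement membranes and at cell surfaces. In the mammary gland the basal layer rests on a basement membrane, blood vessels have one of their own, and fibroblasts are the main source of fibrillar collagen.

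The repeat that defines the family can be read in the exons. The longest unbroken run of Gly-X-Y triplets, counted in the longest listed coding sequence of each gene, was 216 to 344 triplets in the 11 fibrillar genes, with a median of 338. In the 6 type IV genes it was 39 to 66 triplets, and the repeat was split into 22 to 27 runs of 5 or more triplets. Of the 627 internal coding exons of the fibrillar genes, 305 (48.6%) were exactly 54 bases long and 526 (83.9%) were a multiple of 9 bases, the length of a Gly-X-Y triplet. In the type IV genes 12 of 284 (4.23%) were 54 bases long and 134 (47.2%) were a multiple of 9. The exons below, from GENCODE M21 transcripts on GRCm38, lie inside the longest run of 3 fibrillar genes, of Col4a2 and of Col6a1, the genes on which the results turn, and capitals mark bases of the glycine codons.
Col1a1 exon 8, chr11:94939904-94939957, plus strand: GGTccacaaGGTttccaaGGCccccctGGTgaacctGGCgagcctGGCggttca
Col1a2 exon 8, chr6:4515481-4515534, plus strand: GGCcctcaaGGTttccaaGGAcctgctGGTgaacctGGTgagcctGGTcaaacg
Col3a1 exon 6, chr1:45325360-45325413, plus strand: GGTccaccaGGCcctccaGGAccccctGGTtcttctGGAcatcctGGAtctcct
Col4a2 exon 32, chr8:11434628-11434771, plus strand: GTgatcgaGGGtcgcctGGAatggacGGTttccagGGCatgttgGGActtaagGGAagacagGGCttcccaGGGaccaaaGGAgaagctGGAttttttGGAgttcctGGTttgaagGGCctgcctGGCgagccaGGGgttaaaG
Col6a1 exon 9, chr10:76719623-76719676, minus strand: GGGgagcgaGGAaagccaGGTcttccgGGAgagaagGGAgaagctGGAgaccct
The fibrillar exons and the Col6a1 exon begin with a whole glycine codon, whereas the Col4a2 exon begins and ends inside one.

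A gene's value is the sum over its listed transcripts, and how reads that match several isoforms were counted is not stated in the labels. The 44 genes had 219 listed transcripts, of which 32 had a read in at least 1 library. A 50-mer is a run of 50 bases. All 80 collagen transcripts with at most 100 50-mers found in no other listed transcript were at 0 in both libraries, made up of 13 with none and 67 with 1 to 100, where 2.56% and 4.71% of all listed transcripts of those kinds were read. Of those with over 500 such 50-mers, 26 of 71 were read (36.6%, against 35.8% of all listed transcripts of that kind). Transcripts with little sequence of their own were thus read less often among all listed transcripts as well, and some with none were read. Whether this lowers the level of a given collagen was not tested, and a level of 0 does not show that the gene was silent.

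**Figure D1:**
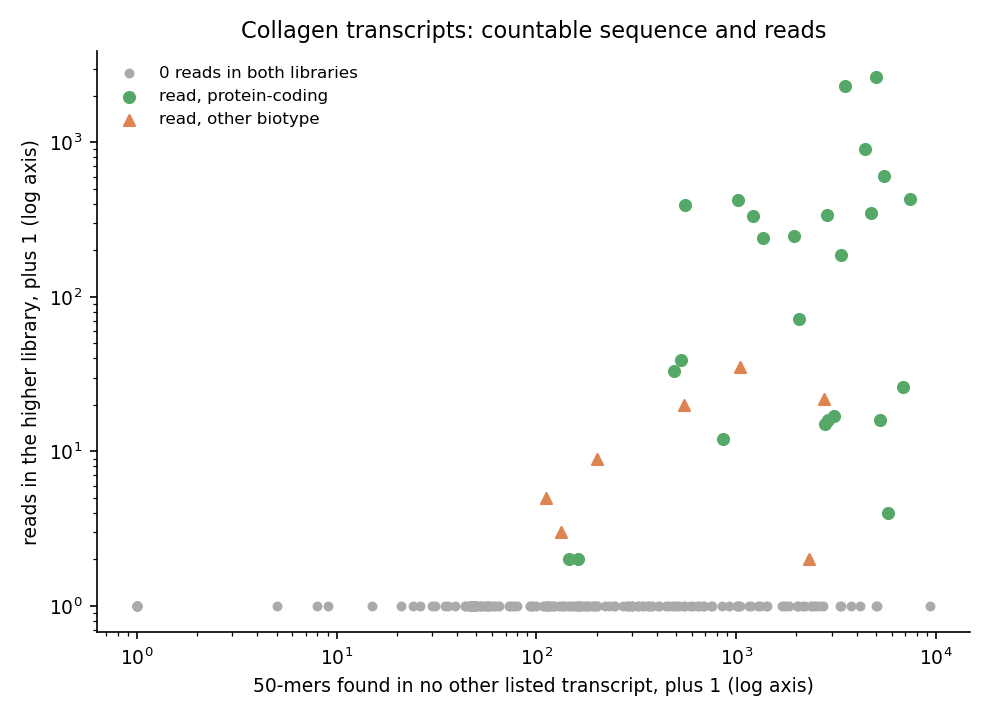
Each point is 1 of the 219 listed collagen transcripts, with the number of 50-mers found in no other listed transcript on the x axis and reads in the higher library on the y axis, both plus 1 on log axes. No transcript with 100 or fewer such 50-mers was read, and the 26 read transcripts with over 500 include the one with the most reads, 2638 of Col4a2 in W1.

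Of the 44 genes, 23 had a read in at least 1 library, 18 in W1 and 22 in W2, and 17 of them in both. A total of 17 genes reached 1 TPM in at least 1 library and were compared on the log2(TPM + 1) scale, W1 over W2. A call means a difference of at least 2-fold. Of the 17, 13 were called, 1 toward W1 and 12 toward W2, and 4 lay within 2-fold. Of all 12587 genes compared, 67.6% were called, 34.7% toward W1 and 32.9% toward W2. The collagens had a median log2 ratio of -2.53, against -0.07 over all genes compared, and with libraries at 0 set to 3 reads and no pseudocount the collagen median was -3.11. A gene that reaches 1 TPM only in the library where it is high tends to be called by that filter, and Col1a1, Col3a1, Col6a1, Col6a4 and Col9a2 passed it through W2 alone. Among the 12 collagens at 1 TPM or more in both libraries, 1 was higher in W1 and 7 were higher in W2, where 16.6% and 28.9% of the 6804 genes of that kind were higher in W1 and W2.

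**Figure D2:**
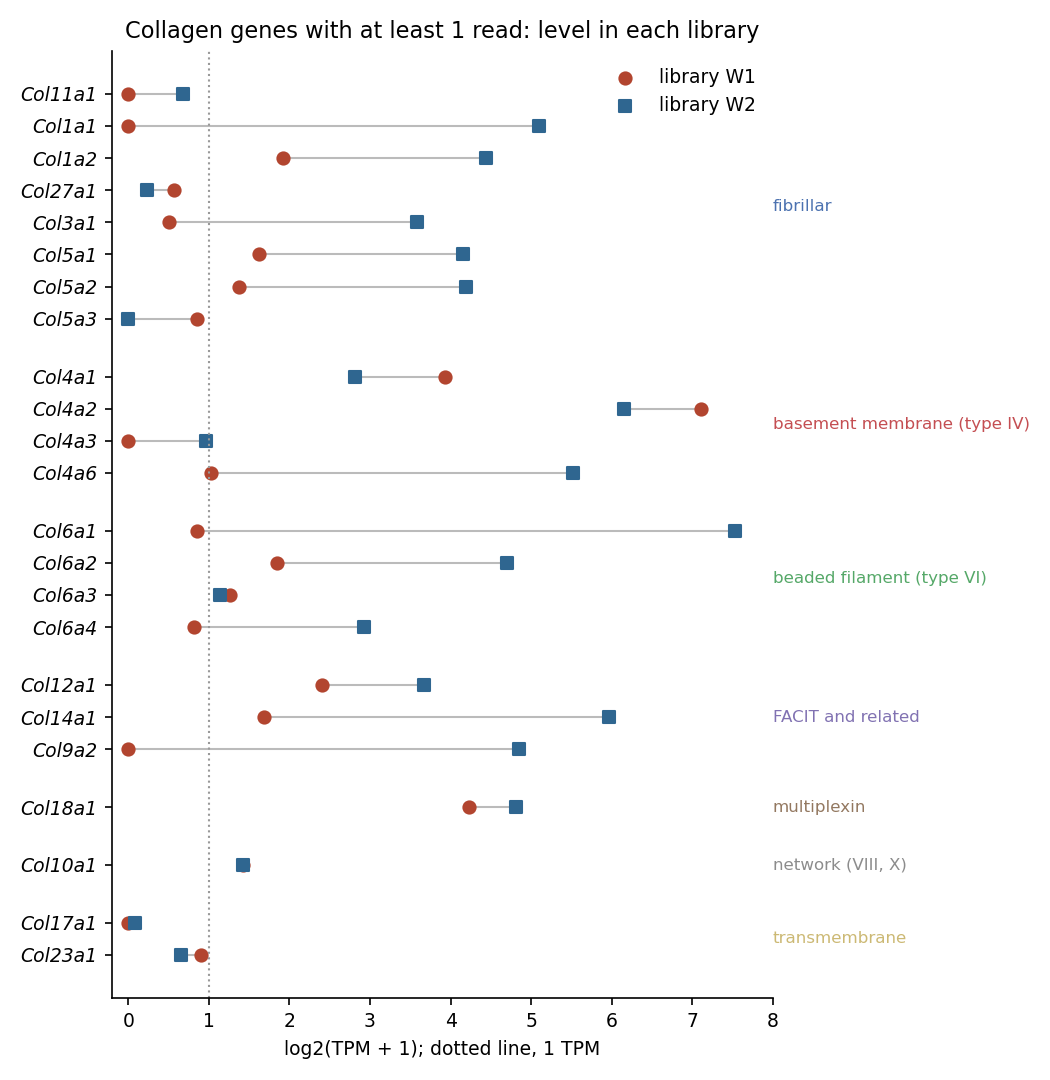
Levels of the 23 collagen genes with at least 1 read, as log2(TPM + 1) on the x axis, in W1 (circles) and W2 (squares), grouped by class. Col4a2 leads in W1 at 137 TPM and Col6a1 leads in W2 at 185 TPM, and the Col10a1 points coincide.

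Collagens together made up 0.0193% of all TPM in W1 (192.63 TPM) and 0.0570% in W2 (570.2 TPM). Approximate 95% intervals from reads were 0.0186 to 0.0199% and 0.0558 to 0.0583%. They give every collagen read equal weight, whereas TPM weights reads by transcript length. Intervals here and below cover counting error only, because the cDNA was amplified and no molecular identifiers are named. The mix of classes differed as well. Type IV collagen held 78.9% of collagen TPM in W1 and 21.4% in W2, and Col4a2 alone held 70.97% and 12.3%. Type VI held 2.88% in W1 and 38.1% in W2. The fibrillar class held 4.23% and 17.5%, FACIT collagens 3.39% and 17.7%, and multiplexins 9.24% and 4.77%, in W1 and W2. Without type IV, the summed level was 40.6 TPM in W1 and 448 TPM in W2. Levels of different classes are on a per-length scale and may be affected by how shared reads were counted.

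**Figure D3:**
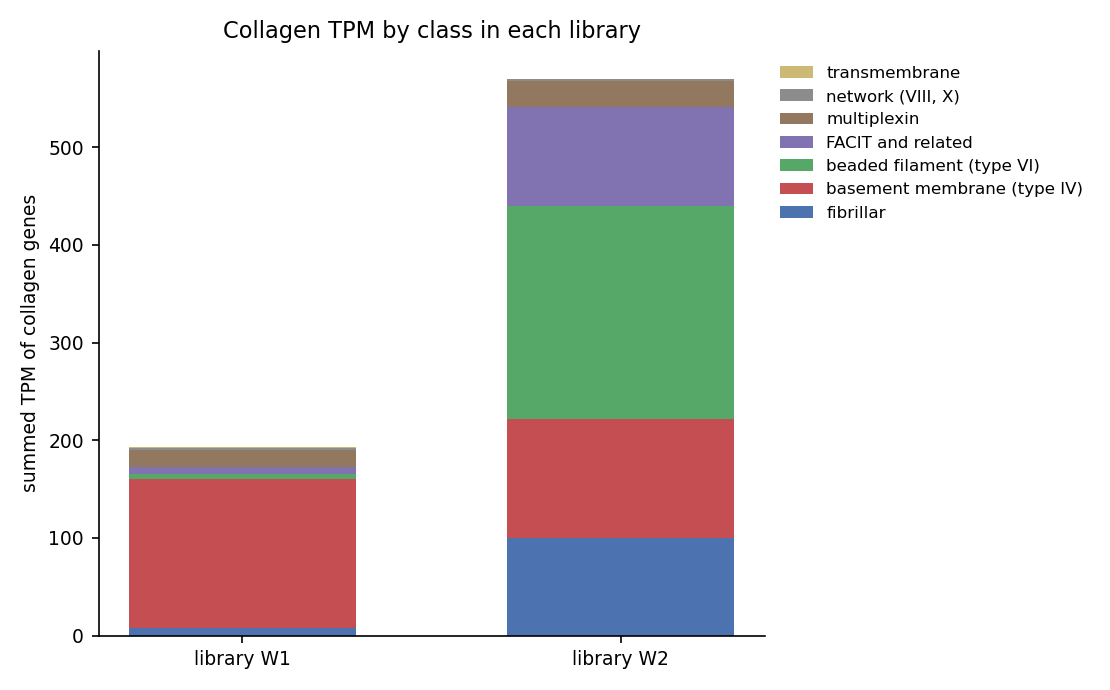
Summed TPM of the collagen genes in W1 (left) and W2 (right), stacked by class. Type IV fills most of the W1 bar (152 of 192.63 TPM) and is of similar height in W2 (122 of 570.2 TPM), where type VI (217 TPM), FACIT (101 TPM) and fibrillar (99.95 TPM) collagens are added.

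All 5 fibrillar collagens compared were higher in W2, 2 of them having passed the filter through W2 alone, against 32.9% of all genes compared. The class summed to 8.15 TPM in W1 and 99.95 TPM in W2. Col1a1, the main chain of type I collagen (ENSMUSG00000001506.10, chromosome 11, 94936224 to 94953042, plus strand, GRCm38), had 0 reads in W1 and 33.4 TPM from 604 reads in W2. With the 0 in W1 set to a floor of 3 reads, 0.167 TPM, the level in W2 was 199.98-fold above that floor. Where 1 library had 0 reads, folds given below as at least are such ratios to the floor. They leave out the counting error of the library that was read. Its transcript has 5466 50-mers of its own, 92.9% of its positions, and 604 reads were counted on it in W2. Col1a2, the partner chain of type I (ENSMUSG00000029661.16, chromosome 6, 4504814 to 4541544, plus strand), stood at 2.78 TPM in W1 and 20.7 TPM in W2, from 45 and 338 reads. That is 7.46-fold higher in W2 (interval 5.45 to 10.4), a smaller difference than for Col1a1, and it leaves Col1a2 as a type I chain read in W1 without its partner.

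Col3a1, which forms type III homotrimers in extensible tissues, had 0.415 TPM in W1 from 7 reads and 10.96 TPM in W2 from 186 reads, 26.4-fold higher in W2 (12.6 to 66.6). The type V chains, which start and limit the width of type I fibrils, were closer together. Col5a1 had 2.08 TPM in W1 and 16.8 TPM in W2, 8.10-fold higher in W2 (6.08 to 10.98). Col5a2 had 1.59 TPM in W1 and 17.3 TPM in W2, 10.8-fold higher in W2 (7.53 to 16.1). For Col1a2, Col5a1 and Col5a2 the intervals overlap, and both libraries had at least 32 reads on each.

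The other fibrillar genes were near or at 0. Col5a3, a further type V chain, had 15 reads in W1 and 0 in W2 (0.809 and 0 TPM). Col11a1, a cartilage fibril chain, had 0 reads in W1 and 14 in W2 (0 and 0.599 TPM). Col27a1 had 11 reads in W1 and 4 in W2, a 2.77-fold difference toward W1 whose interval of 0.822 to 11.9 includes a ratio of 1. Col2a1, Col11a2 and Col24a1 were at 0 in both libraries. Fibroblast markers (0 TPM in W1 and 165 TPM in W2) were higher in the same library as the fibrillar class. So were basal markers (6.62 and 33369 TPM) and luminal markers (7.35 and 4212 TPM). The part of these markers in the result was not tested.

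Type IV chains lay on both sides. Col4a2, the chain that joins a pair of Col4a1 chains in the common basement membrane trimer (ENSMUSG00000031503.13, chromosome 8, 11312805 to 11449287, plus strand), had 137 TPM in W1 and 70.3 TPM in W2, from 2642 and 1384 reads. It was the collagen with the most TPM in W1. The ratio of TPM was 1.94 toward W1 (1.82 to 2.08), and the log2(TPM + 1) difference of 0.95 fell just short of the 2-fold rule. The difference passed it with FPKM as deposited (1.25) and with reads per unique 50-mer (1.53). It did not pass with a pseudocount of 0.1 (0.96) or 5 (0.91), or with the main transcript alone (0.93). Nor did it pass without mitochondrial and ribosomal protein genes (0.74). The FPKM scale also moved the median of all genes, from -0.07 to 0.23. Its main transcript has 4979 50-mers of its own, 77.8% of its positions, and carried 2638 of the 2642 reads in W1 and all 1384 in W2.

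Col4a1 (ENSMUSG00000031502.11, chromosome 8, 11198423 to 11312826, minus strand) was the only collagen called higher in W1, at 14.3 TPM from 27 reads, against 6.02 TPM from 12 reads in W2. The ratio was 2.37 with an interval of 1.16 to 5.14. The call does not rest on the coding transcript. Its full-length form has 145 50-mers of its own (2.21% of positions) and had 0 reads in W1 and 1 in W2, while 27 reads in W1 and 11 in W2 came from 2 short transcripts annotated as retained introns. With protein-coding transcripts only, Col4a1 was at 0 TPM in W1 and 0.050 TPM in W2, and no collagen was called higher in W1. The values of Col4a1 and Col4a2 therefore give no ratio between the chains. The 2 genes start head to head, and their annotated starts overlap by 22 bases, less than a 50-mer.

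Col4a6, a chain of the type IV trimer found in epithelial and smooth muscle basement membranes (ENSMUSG00000031273.16, chromosome X, 141165403 to 141474076, minus strand), went the other way. It stood at 1.04 TPM in W1 from 21 reads and 44.9 TPM in W2 from 910 reads, 43.0-fold higher in W2 (27.97 to 69.8). Its partner Col4a5, which starts 1308 bases away on the opposite strand, was at 0 in both libraries, with 512 50-mers of its own over 4 transcripts. Col4a3, a chain of the kidney glomerular membrane, had 0 reads in W1 and 25 in W2 (0 and 0.958 TPM), at least 8.28-fold higher in W2. The Col4a3 transcript overlaps an antisense gene, C430014B12Rik, over 563 bases, and without knowledge of strand use in counting these reads cannot be told apart. Col4a4 was at 0 in both libraries. Endothelial markers (4670.2 TPM in W1 and 4.78 TPM in W2) were higher in the same library as Col4a2. So were lymphatic (13139 and 8074 TPM), leukocyte (80.1 and 0.267 TPM) and, by less, pericyte markers (59.3 and 51.3 TPM). Basal, luminal and fibroblast markers were higher in the same library as Col4a6. The part of these markers was not tested.

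Type VI genes held the largest difference of the family on the log2(TPM + 1) scale. Col6a1, which encodes the alpha 1 chain of the beaded filament (ENSMUSG00000001119.7, chromosome 10, 76708792 to 76726168, minus strand), had 0.805 TPM in W1 from 10 reads and 185 TPM in W2 from 2309 reads. It was 229-fold higher in W2 (124 to 479) and was the collagen with the most TPM there, with 32.4% of all collagen TPM. Col6a2, the alpha 2 chain and its neighbour on chromosome 10, had 2.59 TPM in W1 and 24.99 TPM in W2, 9.65-fold higher in W2 (6.66 to 14.4). The intervals of Col6a1 and Col6a2 do not overlap. Of the Col6a2 coding forms, one had 31 reads in W1 and 240 in W2, and the other 0 and 71 reads, the second at least 23.5-fold higher in W2.

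Col6a3, the large alpha 3 chain of the same filament, did not follow. It had 1.39 TPM in W1 and 1.20 TPM in W2, from 38 and 33 reads, and its ratio of 1.16 had an interval of 0.708 to 1.91. The transcript read has 529 50-mers of its own, 5.91% of its positions, and whether this affects its level was not tested. Col6a4 had 0.767 TPM in W1 and 6.61 TPM in W2, from 4 and 37 reads, 8.62-fold higher in W2 (3.10 to 33.3). That value rests on a noncoding transcript with 4 and 34 reads, and the coding transcript had 0 reads in W1 and 3 in W2. Col6a5 and Col6a6 were at 0 in both libraries. The basal, luminal and fibroblast markers were higher in the same library as Col6a1, and their part was not tested.

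The 3 FACIT collagens compared were all higher in W2, where 32.9% of all genes compared were. Col9a2 passed the filter through W2 alone, and the call of Col12a1 was lost under 3 settings. Col14a1, which binds the surface of fibrils, had 2.22 TPM in W1 from 14 reads and 61.6 TPM in W2 from 392 reads, 27.8-fold higher in W2 (16.4 to 51.3). All of its reads fell on 1 shorter coding transcript of 2085 bases, which has 553 50-mers of its own. The longer coding transcripts have 46 to 51 each, and whether this affects which form was read, or the level of the gene, was not tested. Col9a2, best known as a chain of cartilage type IX collagen (ENSMUSG00000028626.5, chromosome 4, 121039385 to 121055322, plus strand), had 0 reads in W1 and 27.8 TPM from 248 reads in W2, at least 82.1-fold higher in W2. Its partner chains Col9a1 and Col9a3 were at 0 in both libraries.

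Col12a1, a FACIT collagen of load-bearing tissue, had 4.31 TPM in W1 and 11.7 TPM in W2, 2.72-fold higher in W2 (2.20 to 3.37). The call was lost with a pseudocount of 5 (log2 difference -0.84), with FPKM as deposited (-0.98) and with reads per unique 50-mer (-0.89). The reads counted on its isoforms differed in direction. The transcript of 11511 bases had 79 reads in W1 and 332 in W2, 4.17-fold higher in W2 (3.26 to 5.41). The transcript of 9953 bases had 32 reads in W1 and 0 in W2, at least 10.7-fold higher in W1. The longer form has 1216 50-mers of its own (10.6% of positions) and the shorter one 487 (4.92%). Whether the counting of shared reads affects this difference was not tested. Col16a1, Col19a1, Col20a1 and Col22a1 were at 0 in both libraries.

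**Figure D4:**
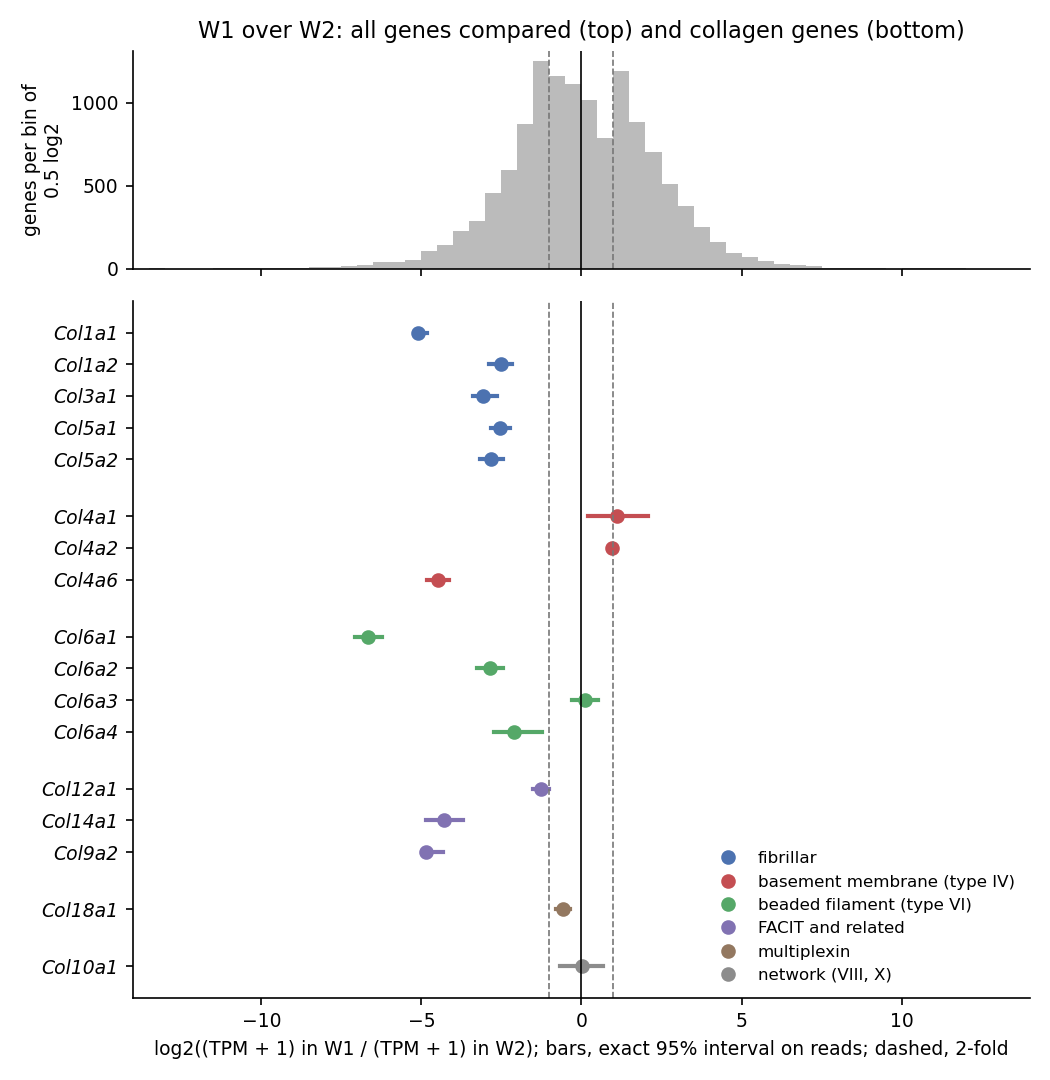
Top, the number of genes per bin of log2((TPM + 1) in W1 / (TPM + 1) in W2) over the 12587 genes compared. Bottom, the same ratio for the 17 collagens compared, with exact 95% intervals on reads, where 12 points lie left of the dashed 2-fold line and Col4a1 lies right of it at 1.12.

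Besides Col4a2 and Col6a3, the collagens within the 2-fold rule were Col18a1 and Col10a1. Col18a1, a basement membrane proteoglycan whose cleaved end is endostatin (ENSMUSG00000001435.15, chromosome 10, 77052178 to 77166548, minus strand), had 17.8 TPM in W1 from 273 reads and 27.2 TPM in W2 from 420 reads. It was 1.53-fold higher in W2 (1.31 to 1.79), a difference in TPM beyond counting error and within the 2-fold rule. Its size depended on the scaling. The log2 difference of -0.58 became -0.29 with FPKM as deposited and -0.02 with reads per unique 50-mer. Without mitochondrial and ribosomal protein genes it was -0.8. All reads fell on the 5063-base form, and the 5595-base form, with a similar 1028 50-mers of its own against 1015, was at 0 in both. Col10a1, a chain of growth plate cartilage and the family's only gene with 1 listed transcript, had 1.69 TPM in W1 and 1.68 TPM in W2, from 16 reads each. The interval of its ratio, 0.471 to 2.15, spans more than 2-fold, so similarity was not shown at this depth.

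Transmembrane collagens were barely read. Col17a1, the hemidesmosome collagen that anchors basal epithelial cells, had 0 reads in W1 and 1 read in W2. Its full transcript has 160 50-mers of its own, 2.89% of its positions. Whether this affects its level was not tested. Col23a1 had 15 reads in W1 and 10 in W2 (0.875 and 0.579 TPM), with a ratio of 1.51 and an interval of 0.635 to 3.76. Col13a1 and Col25a1 were at 0 in both libraries. So were Col7a1, the anchoring fibril collagen under stratified epithelia, and Col8a1, Col8a2, Col15a1, Col26a1 and Col28a1. In all, 21 collagens were at 0 in both, and each has at least 512 50-mers of its own over its transcripts. Much of that sequence can lie outside the coding transcripts. The coding transcripts have 0 in each of Col26a1, 0 and 52 in Col7a1, 38 and 48 in Col2a1, and 0 and 196 in Col9a3. Other genes at 0 have more, such as Col8a1 with 5031 in its longer coding transcript. Whether this affects their levels was not tested.

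Most of the genes compared that modify and fold collagen chains lay within 2-fold. Of 19 in the list, 11 were compared, 0 were higher in W1, 4 were higher in W2 and 7 lay within 2-fold, with a median log2 ratio of -0.32. Of all genes compared, 34.7% were higher in W1 and 32.9% in W2. P4ha1 passed the filter through W2 alone. Among the 10 members at 1 TPM or more in both libraries, 0 were higher in W1, 3 were higher in W2 and 7 lay within 2-fold. For all 6804 genes of that kind, 16.6% were higher in W1 and 28.9% in W2. Under each filter the share toward W2 was near that of all genes. P4hb, the shared subunit of prolyl 4-hydroxylase, led in level with 204 TPM in W1 and 279.6 TPM in W2. The other members within 2-fold were Crtap, Plod1, Fkbp10, Mia3, Colgalt2 and Tmem38b. P3h2, a prolyl 3-hydroxylase known for acting on type IV collagen, had 2.51 TPM in W1 and 79.3 TPM in W2, 31.5-fold higher in W2 (21.2 to 49.0). P4ha1, a catalytic prolyl 4-hydroxylase subunit, had 0.245 TPM in W1 and 4.13 TPM in W2, from 3 and 51 reads, 16.9-fold higher in W2 (5.46 to 84.5). The lysyl hydroxylase gene Plod3 (2.14-fold, 1.72 to 2.68) and P3h4 (2.71-fold, 2.02 to 3.68) were also higher in W2. The collagen chaperone Serpinh1 was at 0 in both libraries, with 289 50-mers of its own over 7 transcripts. As for the collagens, a level of 0 does not show that the gene was silent.

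Of 14 genes for propeptide removal and cross-linking, 11 were compared, 3 were higher in W1 and 8 in W2, with a median log2 ratio of -1.87. All but Adamts2 reached 1 TPM in 1 library alone, so that their calls follow largely from the filter and the counts show nothing about the list. Tll1, a procollagen C-proteinase of the tolloid group, had 28.6 TPM in W1 and 0.391 TPM in W2, from 392 and 3 reads, 73.2-fold higher in W1 (24.9 to 356). Bmp1, the founding member of that group, had 0 reads in W1 and 60 in W2 (3.70 TPM), at least 20.04-fold higher in W2. Pxdn, which forms the sulfilimine cross-links of type IV collagen, had 25 reads in W1 and 0 in W2 (2.42 and 0 TPM), at least 8.39-fold higher in W1. Adamts14 had 19 reads in W1 and 0 in W2.

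On the other side, the N-proteinase gene Adamts2 had 1.32 TPM in W1 and 7.49 TPM in W2, 5.69-fold higher in W2 (3.82 to 8.75). Loxl3 (85 reads), Pcolce (40 reads), Lox (46 reads) and Loxl1 (38 reads) were read in W2 only, at 3.38 to 6.80 TPM, and had 0 reads each in W1. Loxl2 was read in both libraries, with 7 reads in W1 and 60 in W2 (0.435 and 3.70 TPM), 8.51-fold higher in W2 (3.88 to 22.1). Loxl4 was at 0 in both. Lox and its relatives make lysyl oxidases, which cross-link fibrillar collagen and elastin. Bmp1, Lox, Loxl2 and Loxl4 are outside the 4 highest members and were named after their values were seen.

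Of 10 receptor genes, 6 were compared, 2 were higher in W1 and 3 in W2, with a median log2 ratio of -0.94. Only Itga1 and Itgb1 reached 1 TPM in both libraries, and over all genes compared 34.7% were higher in W1 and 32.9% in W2. Itga2, the integrin chain that prefers fibrillar collagen, had 20.7 TPM in W1 and 0.553 TPM in W2, 37.4-fold higher in W1 (21.2 to 73.0). Itga1, which prefers type IV collagen, had 29.95 TPM in W1 and 14.3 TPM in W2, 2.10-fold higher in W1, with an interval of 1.87 to 2.36 that reaches below the 2-fold rule. Their common partner Itgb1 lay within 2-fold at 81.8 TPM in W1 and 119.8 TPM in W2. Ddr1, a collagen-activated receptor kinase of epithelial cells, had 0 reads in W1 and 20 in W2 (7.88 TPM). Mrc2, a receptor for collagen uptake, and Itga11 had 0 reads each in W1 and 36 and 23 reads in W2.

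Of 9 genes for collagen-binding matrix proteins, 6 were compared, 2 were higher in W1 and 4 in W2, with a median log2 ratio of -3.83. Only Bgn reached 1 TPM in both libraries, and the other 5 were at 0 in 1 of them, so these counts too follow largely from the filter. The small proteoglycan gene Bgn had 14.3 TPM in W1 and 600.7 TPM in W2, 41.9-fold higher in W2 (34.6 to 51.4). Fmod, fibromodulin, which binds type I fibrils, had 0 reads in W1 and 168 TPM from 1596 reads in W2, at least 528-fold higher in W2. Dcn and Lum, which are also on the fibroblast list, had 0 reads in W1 and 49.97 and 4.15 TPM in W2. Postn, periostin, had 70 reads in W1 and 0 in W2 (16.997 and 0 TPM), and Fn1, fibronectin, 30 and 0 reads. Sparc, a collagen-binding glycoprotein, was at 0 in both libraries, which does not show that it was silent. Fibroblast, basal and luminal markers were higher in the same library as Bgn and Fmod. Dcn and Lum count within the fibroblast sum, so their direction adds nothing to it. Endothelial markers (4670.2 TPM in W1 and 4.78 TPM in W2) were higher in the same library as Postn and Fn1. So were lymphatic markers (13139 and 8074 TPM) and leukocyte markers (80.1 and 0.267 TPM, nearly all from Lyz2 and Cd79a). The part of all these markers was not tested.

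**Figure D5:**
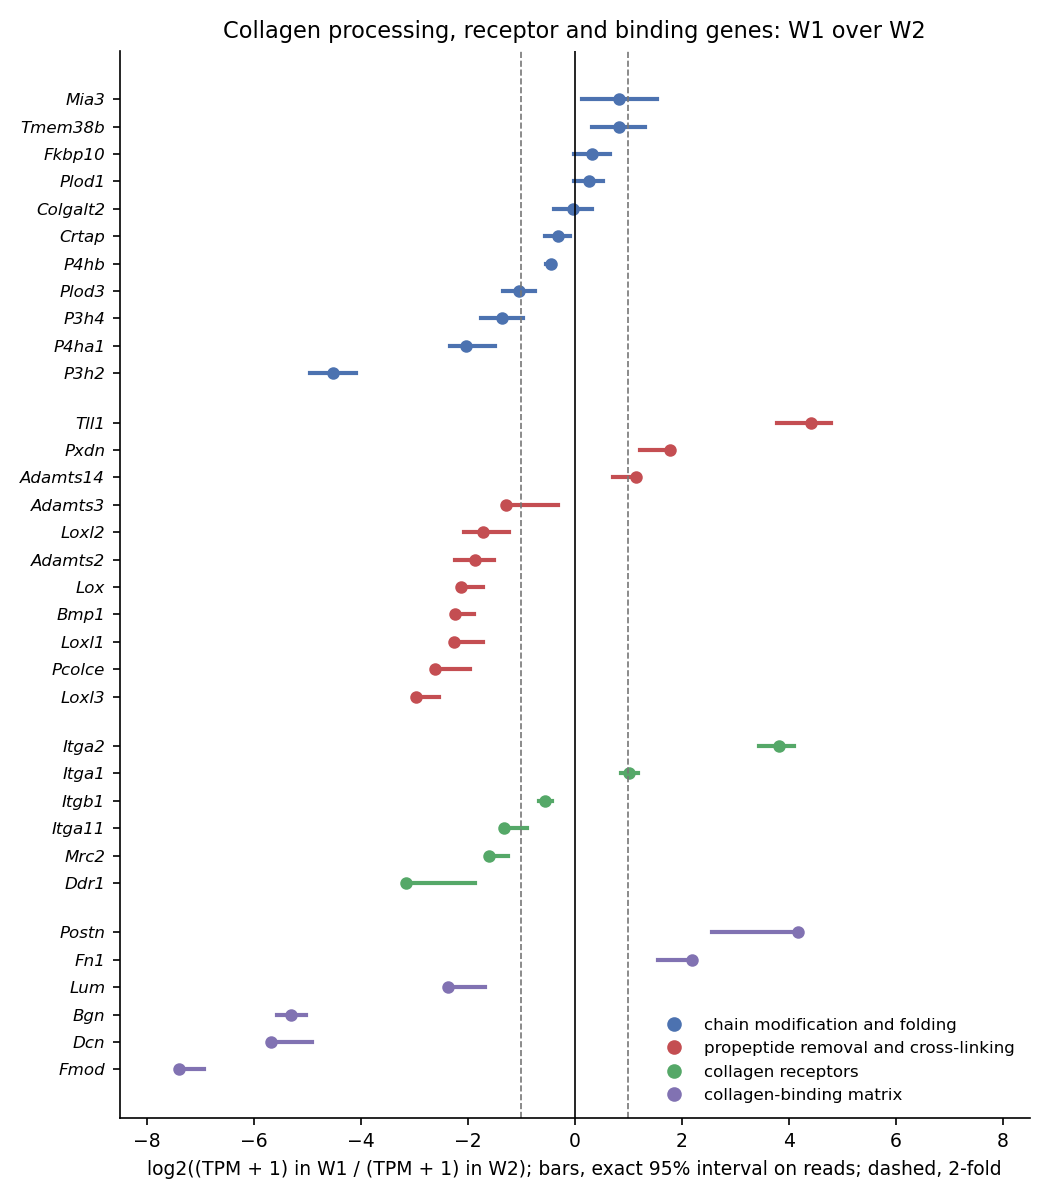
Log2((TPM + 1) in W1 / (TPM + 1) in W2) of the 34 processing, receptor and binding genes compared, by list, with exact 95% intervals on reads and dashed lines at 2-fold. Most chain-modifying genes lie between the lines, while Tll1 and Itga2 lie far to the right and Fmod, Dcn and Bgn far to the left.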

How the data were processed

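RNA of 2 libraries, labelled as sorted mammary basal cells, was analysed. The submitters' processing notes list Bowtie 0.12.2, mm8 and GRCm38. The labels used here name no counting tool, annotation or strand setting. The authors deposited FPKM and TPM for 137767 transcripts, and deposited TPM sum to 1000000 per library. Identifiers were matched to GENCODE M21 on GRCm38 (137654 matched), which may not be the authors' annotation, and summed per gene. FPKM times transcript length fell on whole multiples of 1 read, within 0.1 read, for 98.47% of transcripts above 0 in W1 and 98.07% in W2, which gave the reads.

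The statistic was log2((TPM + 1) in W1 / (TPM + 1) in W2), which understates ratios of low genes, over genes reaching 1 TPM in either library, called at 2-fold. Ratios carry exact 95% Clopper-Pearson intervals from reads. A library at 0 was given a floor of 3 reads, and folds given as at least are ratios to that floor without an interval. Named were all collagens at 1 TPM or more, those read below that level, those at 0 by class, and up to 4 members per direction of each pathway list. Members and lists were chosen with earlier results of these data known. Unmatched identifiers took 0.025% of TPM in W1 and 0.0066% in W2. The steps were tested on simulated libraries. Alternatives were other pseudocounts, filters, transcripts and scalings. Python 3.11.15 was used with pandas 2.3.3, scipy 1.17.1, numpy 2.4.6 and, for figures, matplotlib 3.10.9.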

Additional observations from a re-analysis of the deposited data

How the results depend on the processing

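No paired analysis was possible because each title has 1 library and none was assigned to a group, and no replicate could be left out. The number of collagens called higher in W2 stayed between 11 and 13 under every other pseudocount, filter, transcript choice and scaling run and with protein-coding transcripts only, and was 7 for genes reaching 1 TPM in each library, where fewer genes are compared. The single call toward W1 was less firm. It was 0 with a pseudocount of 5, with the main transcript in place of the sum, without mitochondrial and ribosomal protein genes and with protein-coding transcripts only, 2 with FPKM as deposited, and 3 with reads per unique 50-mer. The median log2 ratio of the collagens was -2.96 with a pseudocount of 0.1, -1.63 with a pseudocount of 5, -1.26 without the filter, -1.93 with reads per unique 50-mer and -1.89 for genes reaching 1 TPM in each library. Scaling moved the median of all genes from -0.07 to 0.23 with FPKM, 0.55 with reads per unique 50-mer and -0.26 without mitochondrial and ribosomal protein genes. Col4a2 stayed above that median in each. The FPKM scale and the removal of those genes multiply a whole library by a common factor. Col4a2 moves along with the median under them, so they could hardly change its place. The collagen share of W1 was 0.0185% with main transcripts, 0.0203% without mitochondrial and ribosomal protein genes, 0.110% as a share of reads and 0.00559% without Col4a2. For W2 the last 3 settings gave 0.0699%, 0.221% and 0.0500%. The use of protein-coding transcripts only, the filter on both libraries and the share without Col4a2 were chosen after seeing the data. Depth limits genes with few reads, such as Col10a1, Col23a1 and Col27a1, whose intervals include a ratio of 1.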
